A study of Homo sapiens with 4 samples.

Results

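The genes examined were FN1 and PLOD2, which act in the extracellular matrix. Every cassette exon listed for them by gene symbol was taken, which gave 6 of the 31408 events in the deposited splicing table, 3 in FN1 and 3 in PLOD2. In such an event a transcript either carries the exon between its neighbours or joins the neighbours directly. The table came from RNA-seq of HEK293T cells, a human embryonic kidney line. The labels describe 4 libraries, 2 from wild-type clones and 2 from RBFOX2 knockout clones. RBFOX2, also named RBM9, is a splicing regulator that binds GCATG. Each library is one clone grown from a single sorted cell, and the same transfection with PX459 and pgRGFP, carrying guides upstream and downstream of RBFOX2, is described for wild-type and knockout clones. Each group thus rests on 2 clones, and differences between clones enter the comparison of genotypes.

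FN1 encodes fibronectin, a secreted glycoprotein that cells assemble into fibrils through integrin receptors. Most of the protein is a chain of folded repeats. Its transcript is spliced variably at the extra domains EDB and EDA, each a complete type III repeat encoded by 1 exon, and at the variable V region, which carries a binding site for the integrin ITGA4 with ITGB1. EDB is included in embryonic and tumour tissue and largely skipped in most adult tissue. PLOD2 encodes lysyl hydroxylase LH2, which hydroxylates lysines of collagen telopeptides and so sets the type of crosslink between collagen molecules. PLOD2 is spliced into a long form with a short cassette exon and a short form without it. RBFOX proteins have been linked in earlier work to the splicing of EDB, where the element lies in the intron after the exon, and to that of the PLOD2 cassette exon.

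The exons that carry the results are shown first, so that the length, frame and identity of each can be read. The sequences are those of GENCODE 29 transcripts, found through the gene identifier and the lengths of the exon and its neighbouring introns. The positions are those of the deposited table, for which the submitters' processing notes name the build hg19; both genes are on the minus strand, and each sequence is written 5′ to 3′ in the direction of the transcript. EDB is the FN1 exon at chr2:216257654-216257926, with 273 nt. It is shown whole, in lower case.
FN1 EDB: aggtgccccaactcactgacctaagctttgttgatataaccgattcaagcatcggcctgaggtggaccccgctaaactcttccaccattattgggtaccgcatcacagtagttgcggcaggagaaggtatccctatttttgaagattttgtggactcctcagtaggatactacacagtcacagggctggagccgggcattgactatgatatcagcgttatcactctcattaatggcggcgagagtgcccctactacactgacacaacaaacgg

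The other FN1 events are alternative forms of one exon of the V region. The longer form, at chr2:216236832-216237098, has 267 nt and 89 codons, which is the form known as V89. The shorter form, at chr2:216236832-216237023, has 192 nt and 64 codons and is known as V64. The forms end at the same base and differ in where the exon begins. In the sequence of V89, the capitals mark the 75 nt (25 codons) that V64 lacks.
FN1 V89: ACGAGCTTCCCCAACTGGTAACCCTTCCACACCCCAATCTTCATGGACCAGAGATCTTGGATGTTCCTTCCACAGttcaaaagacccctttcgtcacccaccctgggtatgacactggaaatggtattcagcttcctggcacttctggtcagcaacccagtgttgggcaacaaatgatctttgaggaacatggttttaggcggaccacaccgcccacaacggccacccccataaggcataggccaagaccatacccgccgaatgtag

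PLOD2 had a 63-nt exon at chr3:145795649-145795711, which is the cassette exon of the long form, a 114-nt exon directly after it at chr3:145794569-145794682, and a 61-nt exon near the start of the gene at chr3:145841052-145841112. In the line for the 61-nt exon, the following exon is added up to the first in-frame stop codon, which is in capitals.
PLOD2 63-nt exon: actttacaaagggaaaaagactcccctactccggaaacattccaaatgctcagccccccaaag
PLOD2 114-nt exon: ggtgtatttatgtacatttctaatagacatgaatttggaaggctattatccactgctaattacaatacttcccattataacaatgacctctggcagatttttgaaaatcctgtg
PLOD2 61-nt exon and next exon to the stop: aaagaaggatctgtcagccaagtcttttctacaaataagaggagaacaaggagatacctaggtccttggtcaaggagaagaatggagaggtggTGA

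Of the 6 events, EDB alone passed, with a large difference in inclusion between the compared sets of libraries. The authors' deposited table gave EDB a difference of -0.728, the first set minus the second, with a p-value of 2.75e-08 and a false discovery rate (FDR) of 2.87e-06. The inclusion level is the share of junction reads, scaled for length, that include the exon, so EDB inclusion was higher in the second set by 0.728 on a scale from 0 to 1. No other FN1 event and no PLOD2 event passed. To pass, an event needed an FDR under 0.05 and an inclusion difference of 0.1 or more in size. Of all events, 5.15% did so, 2.38% with the higher level in the second set and 2.77% in the first. By unique exons the share was 5.73%. Of the 9172 genes, 13.7% had a passing event, as did 12.8% of the 1317 genes that, like FN1 and PLOD2, had exactly 3 events. EDB was also the single event of the 6 to pass at an FDR limit of 0.01 (3.49% of all events passed), at a limit of 0.1 (6.19%), after Bonferroni correction (1.5%), with no minimum difference (6.12%) and with a minimum of 0.2 (3.54%).

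The table calls its sets only first and second, and nothing in its header or in the labels says which is wild type. The sign is read by the rMATS convention, first minus second. A gain or loss of EDB on knockout can therefore not be stated. The columns with values per library match no sample label and were not used, so the inclusion level of each clone, the depth and the spread between clones are not given, and no SD stands behind these differences. Each p-value comes from the authors' own model, which compared 2 libraries with 2.

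The size of the EDB difference was unusual in the table, and its p-value was among the lowest. Its absolute difference was at least as large as that of 97.7% of all events. Among the 1619 passing events, 81 (5%) had an absolute difference as large as that of EDB or larger, and in the direction of EDB these were 37 of 748. Both counts include EDB itself. Its p-value ranked 300 of 31408 from the lowest. The 104 events with a p-value from 1e-08 to 1e-07 had a median absolute difference of 0.296, and 9 of them, EDB included, reached the size of EDB. A large difference alone did not make a call. Of the 758 events whose difference was 0.7 or more in size, 96 (12.7%) passed. Over all events, which include those under the minimum difference, 5.15% passed. Of the same 758 events, 656 (86.5%) had a p-value listed as 1, against 51.4% of all events.

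The V region did not pass in either form. In the authors' deposited table V64 had a difference of 0.125 and V89 of 0.05, both with the higher level in the first set, the direction opposite to EDB. Both had a p-value and an FDR of 1. The value for V64 exceeded the minimum difference. Of the 2978 events with an absolute difference of 0.1 to 0.15, 260 (8.73%) passed, against 5.15% of all events. These pass shares are not alike, because all events include those under 0.1, which could not pass by the rule. In the same range 1049 (35.2%) had a p-value listed as 1, against 51.4% of all events. The V64 and V89 events are not independent measurements. They share the skipping junction and the junction from the V exon to the next exon, and differ in 1 inclusion junction. The difference between EDB and the V forms was not tested. The other extra domain of fibronectin, EDA, was not analysed here.

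The PLOD2 exons had small differences. The 63-nt exon had -0.02 in the authors' deposited table, with a p-value of 0.848. The 114-nt exon had 0.022 with a p-value listed as 1. The difference of the 61-nt exon was 0.01, with a p-value of 0.0639 and an FDR of 0.498, again from the authors' deposited table. By rMATS, 0 of the 3 PLOD2 events had an unadjusted p-value under 0.05, against 12% of all events. Their absolute differences lay below the median of 0.048 over all events. No interval is given for these differences, because the values per library were not used, and they do not show equal inclusion in the sets.

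The PLOD2 63-nt and 114-nt events are linked by a junction. The exon of 142 nt that comes before them is joined to the 114-nt exon when the 63-nt exon is skipped. That same junction is counted as skipping in the 63-nt event and as inclusion in the 114-nt event. The differences of opposite sign, -0.02 and 0.022, are therefore not separate observations.

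**Figure D1:**
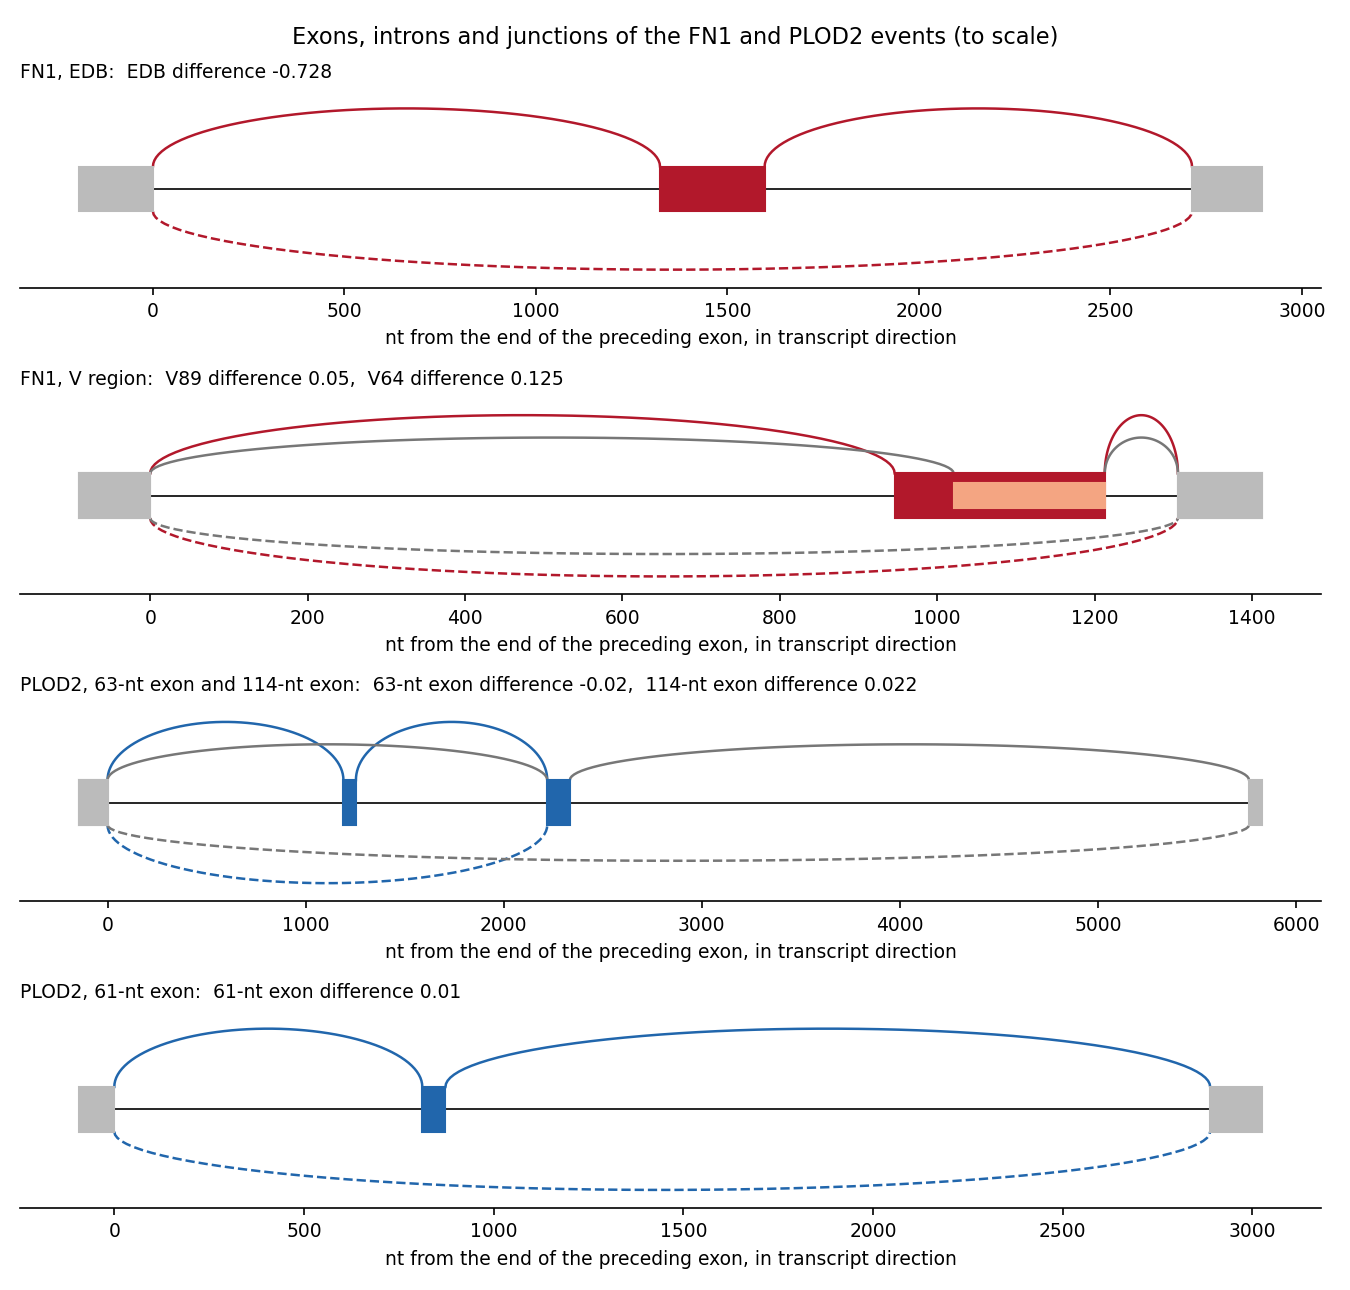
Exons (boxes), introns (thin line) and junctions (arcs) of the 6 events, drawn to scale; the x axis is the distance in nt from the end of the preceding exon, in the direction of the transcript. Red and blue boxes are cassette exons of FN1 and PLOD2, the inner light box is V64 inside V89, grey boxes are neighbouring exons, solid arcs above are inclusion and dashed arcs below are skipping, with grey arcs for V64 and for the 114-nt exon; the title of each panel gives the deposited difference, which is -0.728 for EDB and between -0.02 and 0.125 for the others.

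**Figure D2:**
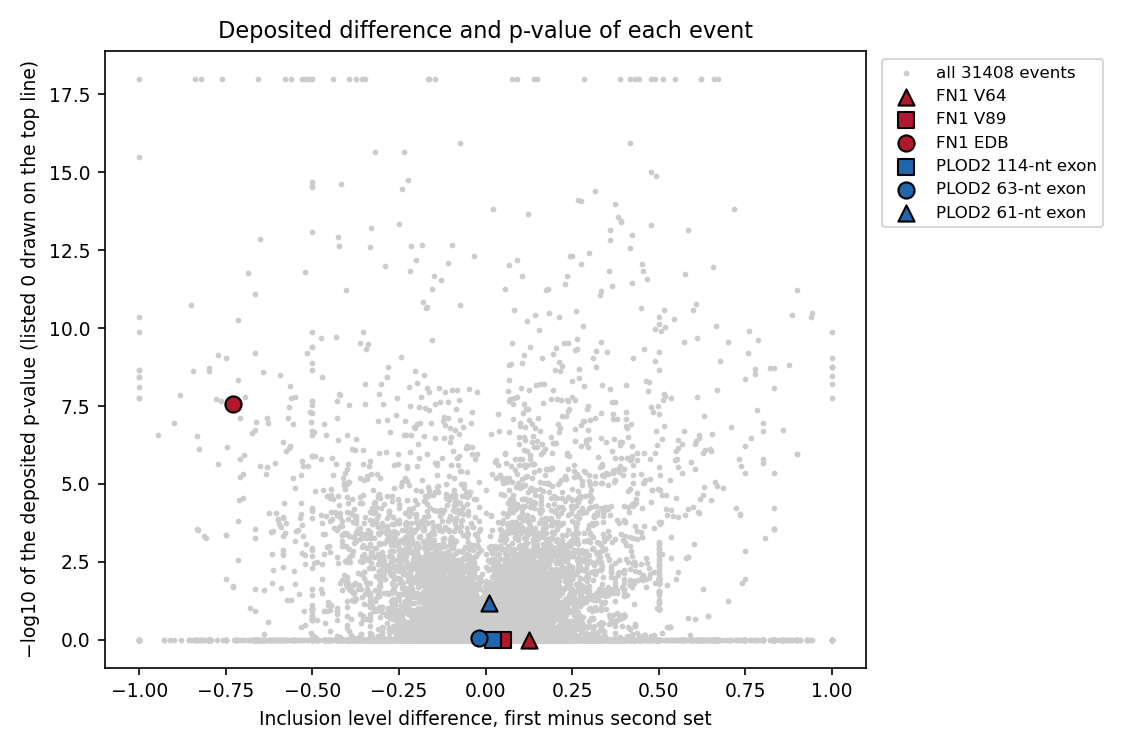
Deposited inclusion level difference, first minus second set (x axis), against −log10 of the deposited p-value (y axis) for all 31408 events (grey points), with a listed p-value of 0 drawn on the top line and the FN1 events in red and the PLOD2 events in blue. EDB lies far left at -0.728 with a p-value of 2.75e-08. The 5 other events lie between -0.02 and 0.125, with deposited p-values of 0.0639 or higher.

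The junctions on which the 2 best known exons are counted are given to show what a read must contain. Each line has 15 nt on either side of the junction, with the bases of the cassette exon in capitals. Reads with the first or second sequence of an exon count as inclusion and reads with the third as skipping.
FN1 EDB joined to the exon before: ataccatcatcccagAGGTGCCCCAACTCA
FN1 EDB joined to the exon after: TGACACAACAAACGGctgttcctcctccca
FN1 EDB skipped: ataccatcatcccagctgttcctcctccca
PLOD2 63-nt exon joined to the exon before: aatgctagagaaatgACTTTACAAAGGGAA
PLOD2 63-nt exon joined to the exon after: CTCAGCCCCCCAAAGggtgtatttatgtac
PLOD2 63-nt exon skipped: aatgctagagaaatgggtgtatttatgtac

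Inclusion and skipping were not counted over the same number of positions. The effective length deposited by the authors was 94 nt for the skipping form of all 6 events. For the inclusion form it was 188 nt for EDB, V89, V64 and the 114-nt exon, 157 nt for the 63-nt exon and 155 nt for the 61-nt exon. The shortest PLOD2 exons were thus covered by fewer read positions than the FN1 exons.

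Every exon but one kept the reading frame. EDB has 91 codons' worth of bases, the 63-nt exon has 21 and the 114-nt exon has 38, and none of the 6 exons holds an in-frame stop codon within it. Over the table, 40.7% of the 27483 unique exons had a length divisible by 3. EDB, V89 and V64 each begin after the first base of a codon, and the PLOD2 exons begin with a whole codon. In GENCODE 29, EDB is exon 25 of the 47 in the FN1 transcript with the most exons, and 3 protein-coding FN1 transcripts have it while 7 join its neighbours directly. V89 is in 3 and V64 in 2 protein-coding transcripts, and 2 skip both. The 63-nt exon of PLOD2 is exon 14 of 20 in the longest PLOD2 form, and 3 protein-coding transcripts have it while 1 skips it. In this pairing the 114-nt exon matched the transcript without the 63-nt exon, and no protein-coding transcript skips it as the event does.

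The 61-nt exon differs from the others in its effect on the frame. It matched 1 transcript, which is annotated for nonsense-mediated decay, and 4 protein-coding transcripts join its neighbours directly. Placed into the longest PLOD2 form, whose reading frame has 758 codons before the stop, it leaves 98 codons. The stop codon follows 32 nt into the next exon, of 137 nt, with 17 exon junctions after it. A stop so far before the last junction is a textbook trigger of nonsense-mediated decay. In the table this exon had the lowest p-value of the PLOD2 events and the smallest absolute difference.

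The V region has a further form that the cassette events count only in part. The intron after V89 and V64 has 93 nt, and only 2.87% of the table's exons have an intron this short or shorter after them. It holds 31 codons with no in-frame stop. In 4 protein-coding transcripts it is kept as exon, within a single exon of 467 nt, and V89 with this stretch has 120 codons, the form known as V120. A V120 transcript has the V89 junction before the exon, but neither the junction after it nor the skipping junction. Reads across the junction before the exon count as V89 inclusion, so the V89 level does not separate V89 from V120. The V89 and V64 levels thus describe only part of the V region's forms. The stretch is shown because these bases separate V89 from V120.
FN1 stretch after V89: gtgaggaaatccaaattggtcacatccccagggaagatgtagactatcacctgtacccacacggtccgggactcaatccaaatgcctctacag

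In length, the FN1 exons lay toward the long end of the table and the 63-nt and 61-nt exons of PLOD2 toward the short end. The median unique exon had 117 nt, close to the 114-nt exon of PLOD2. EDB was at least as long as 94.6% of unique exons, V89 as 94.3% and V64 as 85.4%. The PLOD2 exons of 63 and 61 nt were at least as long as 12.7% and 11.6%, and the 114-nt exon as 48.6%. The introns around EDB, of 1324 nt before and 1116 nt after, were shorter than the medians of 2147 and 2014 nt. Those around the 63-nt exon had 1191 and 966 nt. The 114-nt exon had the longest introns of the 6 events, 2220 and 3429 nt. The 61-nt exon lay between introns of 812 and 2016 nt. In base composition EDB had 49.5% G and C, near the median of 50% over matched exons, whereas the 114-nt exon had 33.3%, a value at or below which 3.17% of exons fell.

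**Figure D3:**
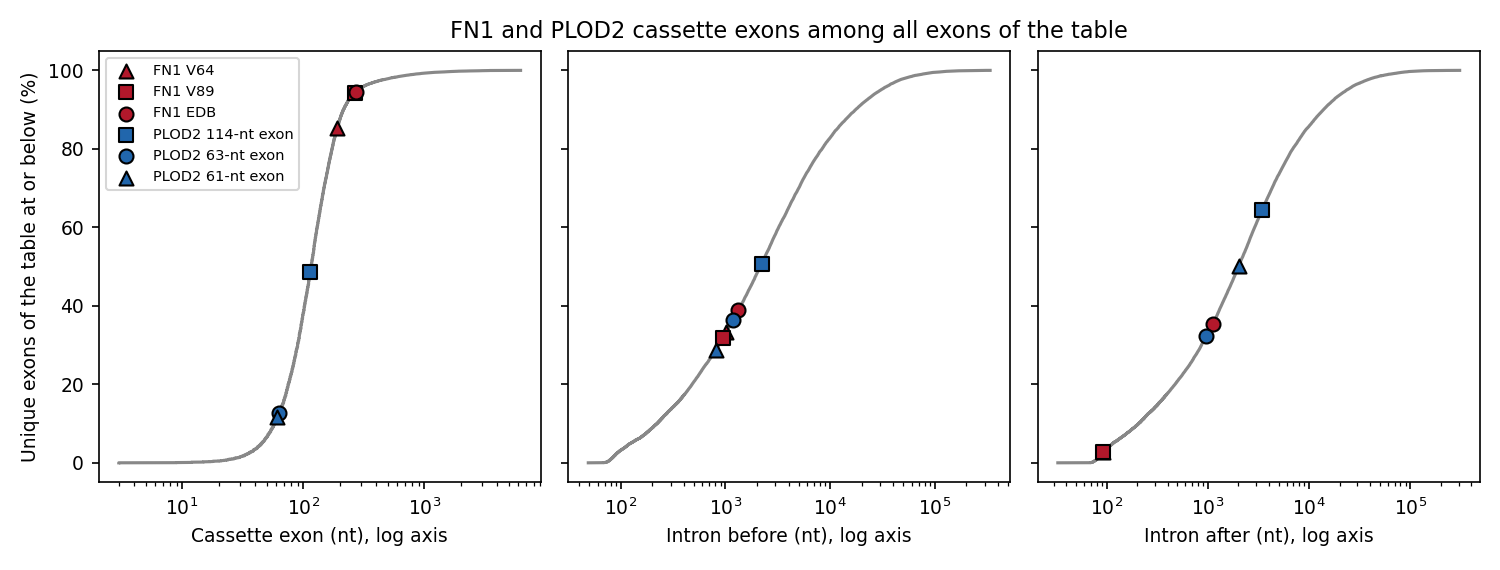
Cumulative share of the table's unique exons (grey line, y axis, percent) by cassette exon length, length of the intron before and length of the intron after (x axes, nt, log scale), with the FN1 exons in red and the PLOD2 exons in blue. The 3 FN1 exons lie at or above 85.4% in exon length, and V89 and V64 share the lowest position for the intron after, at 2.87%.

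GCATG, the element that RBFOX proteins bind, was searched in the sense strand of the exons, since the protein binds RNA. None of the 6 exons holds it, and none holds the longer TGCATG, which contains GCATG. Over the 24785 unique exons with a matched sequence, 11.6% hold GCATG and 3.2% hold TGCATG. Among matched exons of 200 to 300 nt, the range of EDB and V89, 20.1% hold GCATG, and among those of 50 to 120 nt, the range of the PLOD2 exons, 7.25% do. The 93-nt stretch after V89 also lacks it. The other neighbouring introns were not searched, because an hg19 sequence was not used here.

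Other genes of matrix assembly were read by the same rule from 3 lists. Enzymes and chaperones of collagen modification, the setting of PLOD2, had events in 20 of 29 genes. Of their 65 events, 6 passed (9.23%, against 5.15% of all events), 1 with the higher level in the first set and the other 5 in the second. Their median absolute difference was 0.036, against 0.048 over all events. The paralogs of PLOD2 did not pass. PLOD1, the lysyl hydroxylase of the collagen helix, had 4 events with differences from -0.06 to 0.037, and PLOD3, which also glycosylates hydroxylysine, had 2 events at -0.035 and 0.094 in the authors' deposited table. The PLOD3 event at 0.094 had an unadjusted deposited p-value of 0.0172 and an FDR of 0.189.

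The passing events of this list were in 4 genes. FKBP14, a prolyl isomerase of the endoplasmic reticulum, had a 92-nt exon that the authors' deposited table gives at 0.458 (FDR 8.71e-08). For its relative FKBP10, a collagen chaperone, a 193-nt exon was listed at -0.195 with an FDR of 3.73e-05. P4HA2, a catalytic subunit of collagen prolyl 4-hydroxylase, had a 136-nt exon at -0.164. The 3 others are overlapping forms, of 64, 66 and 68 nt, of 1 exon of LEPREL2 (now P3H3), a member of the prolyl 3-hydroxylase family, and were listed at -0.423, -0.442 and -0.356 in the authors' deposited table. They share a junction and are not separate observations. LEPREL2 thus supplies 3 of the 5 passing events of this list with the higher level in the second set, and the share of 9.23% counts this exon 3 times.

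Integrins and partners of fibronectin assembly had events in 21 of 34 genes. Of 73 events 4 passed (5.48%, against 5.15% of all events), 1 with the higher level in the first set and the other 3 in the second. Their median absolute difference was 0.047, against 0.048 over all events. FERMT2, which encodes the integrin activator kindlin-2, had a 21-nt exon that the authors' deposited table gives at 0.416 (FDR 1.12e-10). The adhesion adaptor PXN had 2 passing exons, of 279 nt at -0.203 and of 102 nt at -0.334. The focal adhesion kinase gene PTK2 had a 63-nt exon at -0.103 with an FDR of 0.0475, close to the limit.

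Other structural matrix genes had events in 26 of 64 genes. Of 73 events 7 passed (9.59%, against 5.15% of all events), 2 with the higher level in the first set and the other 5 in the second. Their median absolute difference was 0.125, against 0.048 over all events. This median takes in events that did not pass, some listed at -1 or 1, and repeated events of LTBP4 and FRAS1. Depth was not used, so the median does not measure how strongly these genes differed. In the authors' deposited table NID2, a basement membrane linker, had a 144-nt exon at 0.424 with an FDR of 4.87e-11. FRAS1, a basement membrane protein of epithelia, had a 135-nt exon at 0.219. COL27A1, a fibrillar collagen, had a 54-nt exon at -0.555. The remaining 4 events belong to LTBP4, which binds latent TGF-beta, with values from -0.667 to -0.383. They are not separate observations: the 125-nt exon is listed in 2 events with different exons before it, and the exons of 132 and 154 nt begin at the same base. LTBP4 thus supplies 4 of the 5 passing events of this list with the higher level in the second set. By unique exons, 6 of this list passed. The absolute difference of EDB, 0.728, was larger than that of each of the 17 passing events in these lists.

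**Figure D4:**
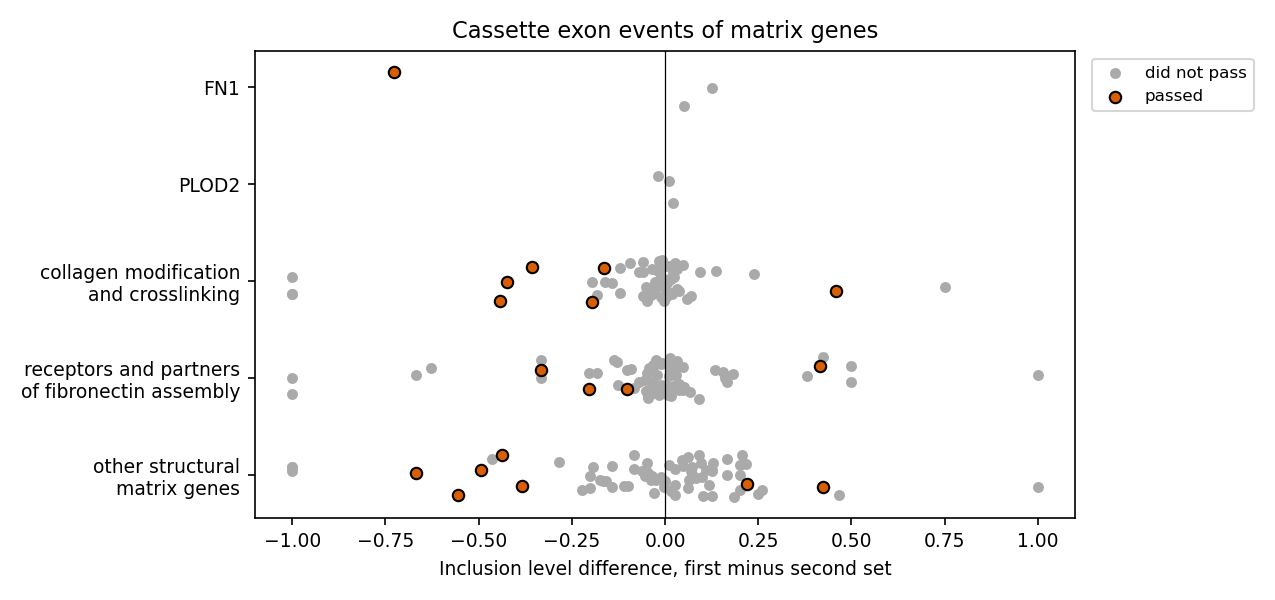
Deposited inclusion level difference, first minus second set (x axis), of every event of FN1, PLOD2 and the 3 lists of matrix genes (rows), with passing events in orange and all others in grey; vertical scatter within a row is for display only. EDB is the single passing FN1 event at -0.728, no PLOD2 event passed, and differences of -1 or 1 in the lists did not pass.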

How the data were processed

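Ribosome-depleted, strand-specific RNA-seq libraries of 4 HEK293T clones (2 WT, 2 RBFOX2 KO by title and genotype) were made by the authors, per the labels' protocols. The submitters' processing notes name STAR 2.7.3a and hg19; the rMATS version, annotation and read filters are not given in the sources used here. The deposited table has the layout of the rMATS skipped-exon output with junction counts, per the file headers. The p-value and FDR of each event are the authors'. Recomputing Benjamini-Hochberg values from these p-values over all 31408 events gave the same FDR (largest gap 1.11e-16). The inclusion level difference, from -1 to 1, and the effective lengths were also deposited by the authors.

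The table names libraries only by set number, so its 6 columns of values per library were not used, no model was fitted and no depth is given. The limits for a call were an FDR of 0.05 and a difference of 0.1 in size. The arithmetic of the calls and adjustment was checked on simulated p-values with planted events well inside these limits. How the rule behaves on junction counts of so few libraries was not tested. Starts were converted to 1-based positions. Of 27483 unique exons, 24785 (90.2%) were found in GENCODE 29 transcripts of the same gene with equal exon and intron lengths, with no coordinate compared between builds. All FN1 and PLOD2 events are named, and of the lists each gene with a passing event (at most 10 per list, by lowest p-value), with PLOD1 and PLOD3 whatever their values. The genes, lists, limits and tests were chosen with earlier results of these data known. Older symbols were used where the table has them. Alternatives were FDR limits of 0.01 and 0.1, Bonferroni correction, no minimum difference, a minimum of 0.2, unique exons, and TGCATG. Python 3.11.15, pandas 2.3.3, numpy 2.4.6 and matplotlib 3.10.9 were used.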

Additional observations from a re-analysis of the deposited data

How the results depend on the processing

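EDB passed, and no other FN1 or PLOD2 event did, under each alternative run: FDR limits of 0.01 and 0.1, Bonferroni correction, no minimum difference, a minimum of 0.2, and unique exons. These alternatives change only how the same deposited p-values and differences are cut or counted. The outcome for the 6 events follows from those values, and no step of read processing was varied. Bonferroni correction left 7 of the 17 passing events of the lists: 2 in fibronectin partners, 2 in collagen modification and 3 in other structural genes; a stricter limit gives fewer by construction. Over the other alternatives the lists had 14 to 22 passing events. No paired analysis was possible because the columns of the table carry no replicate number. No library was left out, because the columns of values per library match no sample label and were not used, so whether 1 clone decides the EDB call was not tested. The search of 100 and 300 bases of intron was not run, as no genome sequence of the build was used. Depth per event was not used either, because it stands in the columns of values per library, and the precision of the small PLOD2 differences is not given.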
